A study of Caenorhabditis elegans with 54 samples.

Results

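The comparison described here asks what UV left behind in the transcriptome of larvae that were 6 h into leaving a dauer arrest held until day 4. All genes with at least 10 estimated counts in at least 3 of the 6 libraries at that time were taken, and 10896 of the 19909 genes in the table (54.7%) met this rule. Dauer is the stress-resistant, non-feeding larval arrest of Caenorhabditis elegans, and exit is the return to feeding and growth once conditions become favourable. Every animal carried daf-2(e1370), a mutation of the insulin and IGF-1 receptor that drives dauer entry at raised temperature, in the N2 background. The group called D4 6 h UV received broadband UVB on dauer day 1, stayed in dauer until day 4 and was collected whole 6 h after exit induction, while the group called D4 6 h was handled in the same way without UV. Each group has 3 libraries, described in the labels as biological replicates, and the UV dose of the sequenced animals was not given in the sources used here. The D4 groups at 0 and 24 h of exit and the D1 groups at 6 h of exit, each with and without UV and 3 libraries to a group, were used for comparison and share no library with the 6 h comparison.

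UVB joins neighbouring pyrimidines in DNA into dimers, and RNA polymerase II stalls where it meets one on the transcribed strand. Nucleotide excision repair cuts out such lesions, either wherever they lie in the genome, where XPC-1 recognizes them, or in transcribed genes, where CSB-1 acts at the stalled polymerase, and both routes pass through XPA-1. Since an unrepaired long gene is more likely to hold a lesion than a short one, a fall of long transcripts is a known sign of blocked transcription, and the study asked whether the differences left by UV and their relation to gene length fade as the larvae leave dauer.

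The 6 libraries held 1141348 to 2732737 estimated counts, and the shallowest was UV replicate 3, with 1141348 against 2220815 and 2257446 in the other UV libraries and 2449359 to 2732737 without UV. UV replicate 3 also stood apart on the first principal component, which held 41.2% of the variance and placed it at 42.9 and the other 5 libraries between -14.4 and -2.4. The biological coefficient of variation was 9.32% over all 6 libraries, 12.297% over the 3 UV libraries, 4.96% over UV replicates 1 and 2 alone, and 6.87% over the libraries without UV. Levels below are CPM, counts put on a common library total and scaled by TMM, each group is given as mean ± SD (n = 3), and each log2 change is the UV group minus the group without UV from edgeR's quasi-likelihood fit. Markers of intestine, body-wall muscle, pharynx and neurons were detected in every library. The summed level of 6 muscle markers was 3019 CPM in UV replicate 3 and 1901 to 2500 CPM in the other 5 libraries. The 6 yolk genes summed to 168.8 CPM in replicate 2 without UV, to 11 CPM in UV replicate 1 and to 0.368 to 0.902 CPM in the other 4 libraries. The receptor gene daf-2, whose allele is not a deletion and so does not test the labels by its level, had 413, 450 and 494 CPM with UV and 422, 397 and 415 CPM without, a log2 change of 0.13 (SE 0.08, adjusted p = 0.554).

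UV changed few transcripts at this time, and raised more than it lowered. At a Benjamini-Hochberg adjusted p under 0.05 in the quasi-likelihood test of edgeR, 150 genes were called (1.38% of those tested), of which 102 (0.936%) were higher after UV and 48 (0.441%) were lower. The median log2 change over all 10896 genes was 0.00, and 1268 genes (11.6%) had an unadjusted p under 0.05. Among the genes called higher the log2 change ran from 0.27 to 2.59 with a median of 0.68, and 23 of the 102 rose by at least 1. Among the genes called lower it ran from -2.23 to -0.19 with a median of -0.66, and 12 of the 48 fell by at least 1. In every one of the 150 the CPM of the 3 UV libraries did not overlap that of the 3 others, as was also so for 1952 (17.9%) of all genes tested, 8.94% of them higher and 8.98% lower with UV. The number of calls rested on single libraries. It was 312 (173 higher, 139 lower) without UV replicate 3, 45 without UV replicate 2, 96 without UV replicate 1, and 48, 64 and 61 without replicates 1, 2 and 3 of the group without UV, and 33 genes stayed past the threshold in all 6 of these fits. None of the 150 turned direction under any alternative tried, but groups that do not overlap leave little room for a turn. With UV replicate 3 left out all 149 that could be retested stayed past the threshold.

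**Figure D1:**
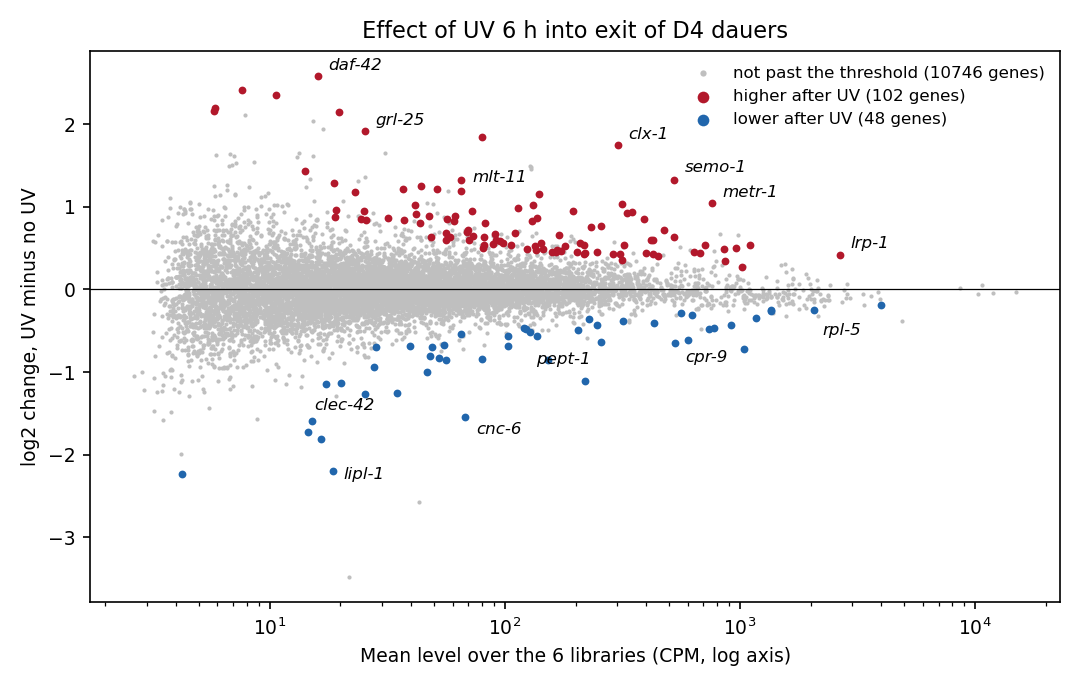
Mean level over the 6 libraries (CPM, log axis) against the log2 change, UV minus no UV, for the 10896 genes tested 6 h into D4 exit, with the 102 genes called higher in red, the 48 called lower in blue and the rest in grey. The called genes run from daf-42 at 2.59 to pud-2.2 at -2.23, and genes not called reach -3.49. In the upper 50% of levels lie 87 of the genes called higher and 38 of those called lower. Calls among abundant genes include small changes, such as lrp-1 at 0.42 and rpl-5 at -0.24, and larger ones, such as semo-1 at 1.32.

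Called rises included metr-1 and mthf-1, enzymes of the methionine and folate cycle, which passes a methyl group from folate to homocysteine to make methionine. The gene with the smallest p of all was semo-1 (IV 14051200-14056717 in WBcel235), which encodes a methanethiol oxidase of the selenium-binding protein family. Its level was 714, 749 and 792 CPM with UV against 253, 333 and 317 CPM without. All 3 UV libraries thus stood far above the highest of the others, a 2.5-fold rise (751 ± 39 against 301 ± 42.3 CPM, log2 1.32, SE 0.09, adjusted p = 0.000132). Methionine synthase, metr-1 (II 10926561-10931078), stood at 868, 990 and 1235 CPM with UV against 468, 512 and 513 CPM without. Here the UV libraries were spread more widely than the others but remained well above them, a 2.06-fold rise (1031 ± 187 against 498 ± 25.7 CPM, adjusted p = 0.000946). For mthf-1 (II 7773904-7777823), the methylenetetrahydrofolate reductase that supplies the folate used by metr-1, the values were 604, 640 and 664 CPM against 379, 403 and 446 CPM, a 1.55-fold rise (adjusted p = 0.00168). All of semo-1, metr-1 and mthf-1 stayed past the threshold whichever of the 6 libraries was left out. They were the 3 called members among 24 tested (12.5%, beside 1.38% of all genes tested) of a list drawn around the cycle. In this list semo-1 was placed although it is not an enzyme of the cycle itself. None of the list was called lower, and its median log2 change was 0.12 beside 0.00 over all genes. This list was assembled after the values were seen, as were those of cobalamin genes, ABC transporters, P-type pumps, gut peptidases and the mitochondrial genome. The partner pathway that processes cobalamin, the cofactor of methionine synthase, had 1 call among 13 genes (7.69%), cblc-1, at 57.8, 64.4 and 54.1 CPM against 35.5, 43.5 and 35.3 CPM (log2 0.64, adjusted p = 0.0424). That call was kept in 1 of the 6 leave-one-out fits.

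A few genes that respond to metals or reactive oxygen also rose. The metallothionein mtl-1 (V 6691371-6691863), a small metal-binding protein, had 538, 612 and 618 CPM with UV and 351, 368 and 355 CPM without, so that the lowest UV library lay well above the highest of the others (589 ± 44.1 against 358 ± 8.9 CPM, log2 0.72, SE 0.07, adjusted p = 0.000902). The nuclear metal-responsive gene numr-1 rose 1.48-fold, from 168 ± 7.38 to 250 ± 13.4 CPM (adjusted p = 0.0055), and both genes stayed past the threshold in all 6 leave-one-out fits. Ferritin, the iron store encoded by ftn-1, had 107, 111 and 95.6 CPM against 53.8, 56.7 and 70.7 CPM (log2 0.80, adjusted p = 0.00907), with its call kept in 3 of the 6. These were the 3 calls among 15 metal-response genes tested (20%, beside 1.38% of all genes tested). Their median was 0.15, and none was called lower, although 6 of the 15 had a log2 change below 0. Of 23 genes of oxidative stress defence only the superoxide dismutase sod-1 was called (4.35%), at 161, 179 and 171 CPM against 116, 123 and 107 CPM (log2 0.56, adjusted p = 0.0124). Its call was kept in 3 of the 6 leave-one-out fits, and without UV replicate 3 the list had 4 calls, all higher. Of 33 glutathione transferases, which couple glutathione to reactive compounds, 2 were higher (6.06%), gst-4 (log2 0.54, adjusted p = 0.0401) and gst-5 (0.52, adjusted p = 0.0487). The call of gst-4 was kept in 2 and that of gst-5 in 1 of the 6 leave-one-out fits. Without UV replicate 3 there were 3 higher and 1 lower, and with the replicate number as a block the list had 1 call.

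Some transporters and conjugating enzymes that move or inactivate small molecules were also called, in lists to be read beside the 1.38% called of all genes tested. The ABC transporter pgp-6, a P-glycoprotein, had 214, 264 and 293 CPM with UV against 154, 131 and 110 CPM without, with no overlap between the groups and a 1.94-fold rise (adjusted p = 0.0055). Its relative haf-7 stood at 118, 147 and 193 CPM against 91.2, 61.6 and 72.9 CPM (log2 0.99, SE 0.18, adjusted p = 0.0178), and haf-9 was lower (log2 -0.48), which made 2 higher and 1 lower among 41 ABC transporters, or 4 and 2 without UV replicate 3. Among 53 UDP-glucuronosyltransferases, which attach sugars to hydrophobic compounds, 4 were called higher (7.55%) and none lower with a list median of 0.04, and without UV replicate 3 there were 8 higher. The 4 were ugt-26 (44.6, 51.8 and 72.1 against 34.8, 20.9 and 24.3 CPM, log2 1.02, adjusted p = 0.0401), ugt-28 (0.68), ugt-29 (0.67) and the low gene ugt-35, which had 18.5, 17.1 and 18 CPM with UV and 3.74, 3.29 and 3.31 CPM without (log2 2.36, SE 0.25, adjusted p = 0.00107). In that order, their calls were kept in 3, 2, 2 and 6 of the 6 leave-one-out fits. The cytochrome P450 cyp-14A5 was the 1 call among 47 P450 genes (2.13%), at 158, 185 and 190 CPM against 105, 101 and 85 CPM (log2 0.86, adjusted p = 0.00278). The Na+/K+-type pump subunit catp-3 (V 8076012-8079916) had 467, 480 and 427 CPM with UV against 275, 238 and 206 CPM without, and catp-1 of the same family had a log2 change of 0.52. For catp-3 the rise was 1.92-fold (adjusted p = 0.00107), and these were the 2 calls among 20 P-type cation pumps (10%). The fatty acid- and retinol-binding protein far-3 (V 12996787-12997522) had 380, 386 and 514 CPM against 215, 214 and 191 CPM, a 2.05-fold rise (427 ± 75.7 against 206 ± 13.5 CPM, adjusted p = 0.00107), and the Rh-type ammonium channel rhr-1 had 363, 380 and 399 CPM against 262, 263 and 259 CPM (log2 0.54, adjusted p = 0.00278).

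**Figure D2:**
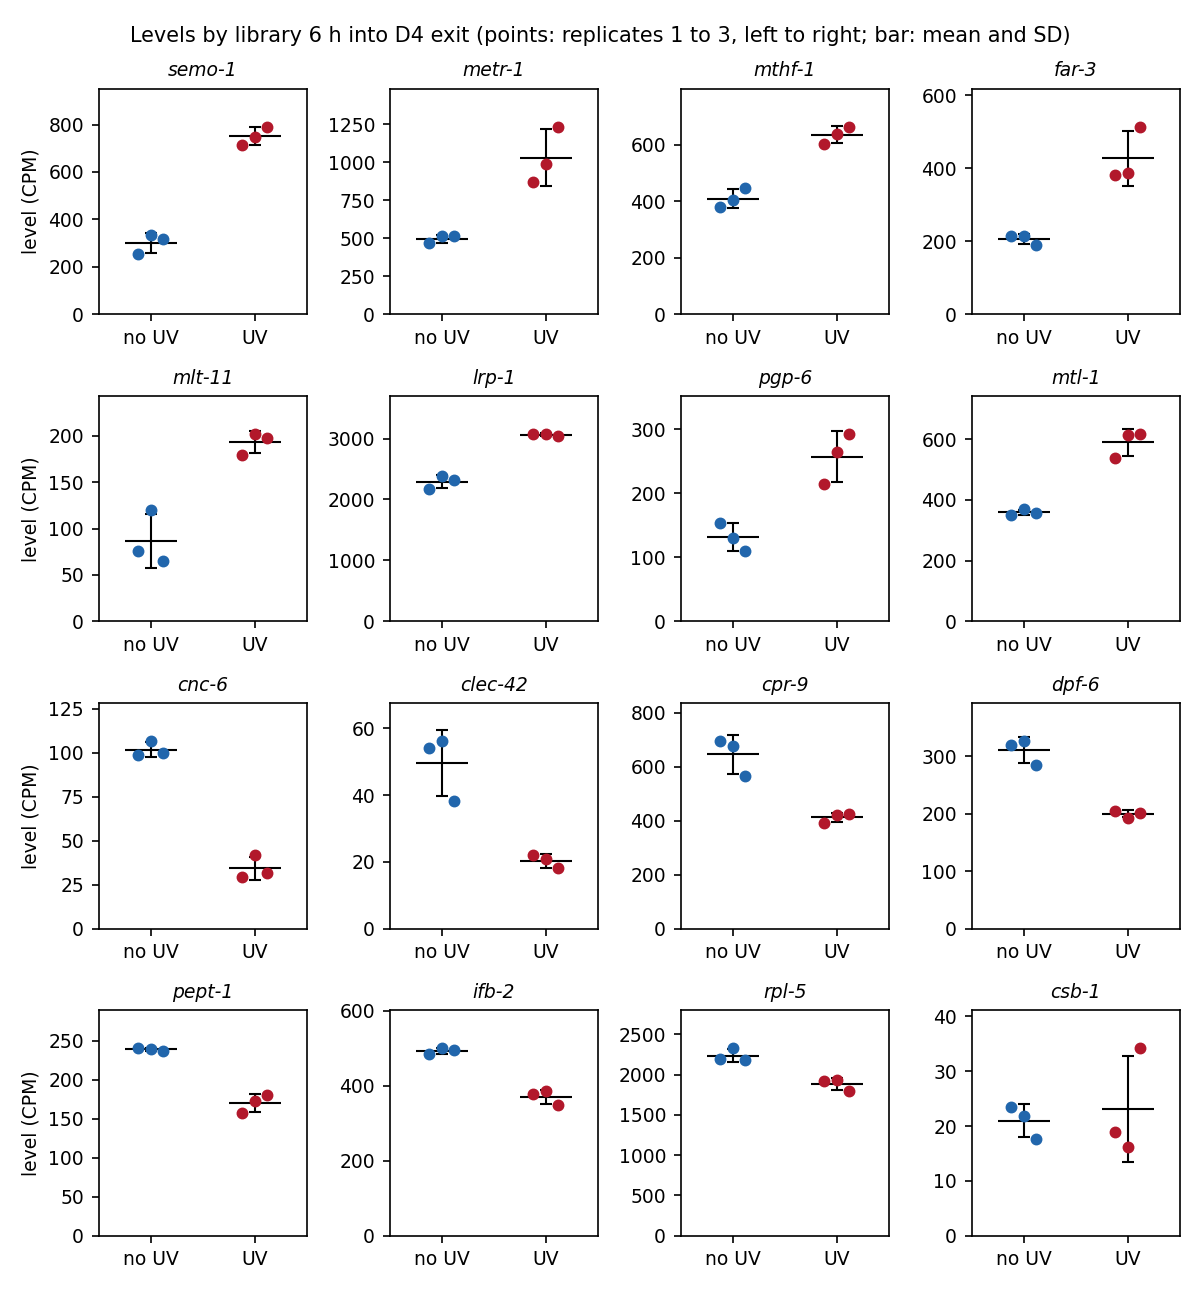
Levels (CPM, linear axes from 0) of 16 genes in each of the 6 libraries, without UV in blue and with UV in red, replicates 1 to 3 from left to right, with the mean and SD of each group (n = 3). The 15 panels other than csb-1 show called genes, and no called gene overlapped between the groups. Of all genes tested, 17.9% did not overlap. Examples are 714 to 792 against 253 to 333 CPM for semo-1 and 29.6 to 41.9 against 98.7 to 107 CPM for cnc-6. The groups overlap for csb-1.

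Some genes of molting, the process in which the larva sheds one cuticle and secretes the next, were also higher. The secreted Kunitz-domain protein mlt-11 (V 20667205-20678537), needed for molting, had 180, 202 and 197 CPM with UV and 75.9, 120 and 65.1 CPM without. The groups lay well apart even at the high replicate 2 without UV, and the rise was 2.23-fold (193 ± 11.9 against 87 ± 29 CPM, adjusted p = 0.00907), with the call kept in 4 of the 6 leave-one-out fits. The large endocytic receptor lrp-1 (I 7614176-7634143), a megalin relative of the epidermis that is needed for molting, was among the most abundant called genes at 3070, 3079 and 3046 CPM against 2169, 2380 and 2318 CPM. The UV libraries agreed closely, and the change was small but called in all 6 leave-one-out fits (log2 0.42, SE 0.05, adjusted p = 0.00138). With acn-1, related to angiotensin-converting enzyme (67.1, 72.5 and 101 against 42.2, 45.6 and 38.6 CPM, log2 0.89, adjusted p = 0.0166), they were the 3 calls among 28 molting genes tested (10.7%, beside 1.38% of all genes tested). Of these 28, 23 had a log2 change above 0, and the list median was 0.14. The call of acn-1 was kept in 2 of the 6 leave-one-out fits. Among 40 hedgehog-related and patched-related genes, many of which act in the epidermis, 2 were higher (5%), namely ptr-22 (286, 317 and 276 against 165, 163 and 195 CPM, log2 0.75, adjusted p = 0.00262) and grl-25 (III 8962293-8965707), and none was lower. The level of grl-25 was low, at 30.9, 41.4 and 48.7 CPM with UV and 7.1, 11.1 and 12.9 CPM without, yet the 2 ranges lay far apart (log2 1.92, SE 0.24, adjusted p = 0.00239).

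Collagens, the main proteins of the cuticle, moved in both directions. Of 68 numbered collagens tested, 4 were called higher and 2 lower (8.82% called, beside 1.38% of all genes tested). The median log2 change was 0.35, with 46 of the 68 above 0. That median fell to 0.12 without UV replicate 3, with 7 higher and 3 lower of 66 tested. The collagen col-51 had 47.7, 132 and 100 CPM with UV against 36.6, 35.3 and 38.6 CPM without (log2 1.32, SE 0.29, adjusted p = 0.0471), and col-85 had 114, 231 and 187 against 83.4, 101 and 76.2 CPM (log2 1.03, adjusted p = 0.0372). In both, UV replicate 1 lay near the libraries without UV and the other UV libraries well above, and each call was kept in 2 of the 6 leave-one-out fits. The remaining calls among them were col-43 (log2 1.19), col-183 (0.83), col-176 (-0.81, at 32.7, 37.4 and 34.3 against 66.5, 61.6 and 55.2 CPM, adjusted p = 0.0129) and col-125 (-1.60). The collagen-like gene clx-1 had 304, 339 and 769 CPM against 160, 115 and 137 CPM, a rise of 1.74 on the log2 scale (SE 0.29, adjusted p = 0.0138) in which UV replicate 3 stood far above the rest, and the call was kept in 3 of the 6 leave-one-out fits. The 15 collagens that shape the body, such as the dpy and rol genes, had no call in edgeR or DESeq2, 1 of them had an unadjusted p under 0.05, and their median moved between -0.41 and 0.41 over the alternatives. Collagens share repeats, and the division of reads among such genes by Salmon is uncertain.

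Some of these genes have known ties to dauer. The gene daf-42 (IV 7333638-7346851), which is needed for larvae to form dauers, had the largest log2 change of all called genes and was named after its values were seen. It had 24.3, 25.7 and 33.4 CPM with UV and 3.36, 2.87 and 6.99 CPM without (27.8 ± 4.89 against 4.41 ± 2.25 CPM, log2 2.59, SE 0.30, adjusted p = 0.0016). In D4 dauers at 0 h without UV it had 2.08, 3.17 and 1.97 CPM, so a high level of daf-42 does not mark the D4 dauer state. Of 16 genes known for high levels in dauers, 3 were called (18.8%, beside 1.38% of all genes tested), all higher. They were mtl-1, ftn-1 and the small heat shock protein hsp-12.6 (log2 0.46, adjusted p = 0.0462), and there were 6 calls without UV replicate 3. Summed over 7 dauer marker genes the level was 804.1, 1193 and 1249 CPM with UV and 618.3, 733.8 and 736.1 CPM without. The collagens col-2 and col-40, which build the dauer cuticle, weighed on that sum but were not called (log2 1.46 and 1.48, adjusted p = 0.0898 and 0.0951). The cuticlin cut-1 of the same cuticle added little to it, at 9.71, 17.1 and 48.7 CPM with UV and 2.24, 5.34 and 8.46 CPM without. It was not called either (log2 2.04, adjusted p = 0.132). In D4 dauers at 0 h without UV cut-1 had only 1.85, 1.46 and 1.48 CPM, whereas mtl-1, ftn-1 and hsp-12.6 were higher there than at 6 h without UV. In whole animals fewer cells of a type and less RNA per cell cannot be told apart, and the part of a different share of animals still in dauer in these results was not tested.

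The falls included genes of host defence and of the gut. The antimicrobial peptide gene cnc-6 of the caenacin family (III 1763522-1764902) had 29.6, 41.9 and 31.6 CPM with UV against 98.7, 107 and 99.7 CPM without. It fell to 0.342 of the level without UV (34.3 ± 6.61 against 102 ± 4.39 CPM, log2 -1.55, SE 0.14, adjusted p = 0.000289), and stayed called in all 6 leave-one-out fits. Of 70 lysozymes, saposins and antimicrobial peptides tested, 5 were lower and 2 higher (10% called, beside 1.38% of all genes tested), with a median of -0.10. Without UV replicate 3 there were 8 lower and 4 higher. Besides cnc-6 the lower ones were fip-5 (38.4, 37.8 and 36.1 against 59.8, 69 and 54.5 CPM, adjusted p = 0.0278), nlp-27 (log2 -0.57), the invertebrate lysozyme ilys-3 (-0.51) and the saposin spp-5 (-0.38). The higher ones were the lysozyme lys-7, at 808, 807 and 912 against 533, 672 and 526 CPM (log2 0.54, adjusted p = 0.0156), and the low gene fipr-23 (log2 2.42). The C-type lectins, secreted sugar-binding proteins many of which respond to microbes, had 3 lower and 1 higher among 62 tested (6.45% called). Of the 62, 43 lay below 0, and the median was -0.20. Without UV replicate 3 these calls were 7 lower and 2 higher. The lectin clec-42 (V 18191412-18194168) had 22.1, 20.7 and 18 CPM against 54.2, 56.3 and 38.3 CPM (log2 -1.26, SE 0.18, adjusted p = 0.00665), and clec-80 (28.7, 36 and 27 against 49.7, 71.9 and 65.5 CPM, adjusted p = 0.0156) and clec-5 (log2 -0.82) fell as well. The one that rose was clec-78, at 26.9, 31.5 and 42.4 against 17.6, 17.7 and 15.1 CPM (log2 0.95, adjusted p = 0.0351).

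Several peptidases that digest protein and the carrier that takes up the products also fell. The cathepsin B-like protease cpr-9 (V 12003053-12004584) had 392, 420 and 425 CPM with UV and 696, 676 and 564 CPM without (412 ± 17.7 against 645 ± 71.2 CPM, log2 -0.65, SE 0.08, adjusted p = 0.00278). The dipeptidyl peptidase family member dpf-6 (III 8038241-8041329) had 206, 193 and 201 CPM against 321, 327 and 286 CPM, a fall to 0.642 of the level without UV (adjusted p = 0.0027), and both kept their call in all 6 leave-one-out fits. The intestinal transporter of di- and tripeptides, pept-1 (X 6456872-6461767), stood at 158, 172 and 181 CPM against 241, 240 and 237 CPM, 171 ± 11.7 against 239 ± 1.88 CPM (log2 -0.50, SE 0.08, adjusted p = 0.0124), although its call was kept in only 1 of the 6. Of 42 peptidases of the gut taken with this transporter, 6 were lower and 1 higher (16.7% called, beside 1.38% of all genes tested). The others lower were pcp-1, related to prolyl carboxypeptidases (84.7, 75.2 and 75.7 against 105, 150 and 127 CPM, log2 -0.69), pcp-3 (-0.31) and the neprilysin nep-17 (-0.34), and the one higher was the aspartic protease asp-5 (0.50, adjusted p = 0.0137). The lipase lipl-1, also named after its values were seen, dropped from 35.9, 34.9 and 19.5 CPM to 3.97, 6.75 and 10.8 CPM (log2 -2.19, SE 0.34, adjusted p = 0.00907).

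The intermediate filament ifb-2 (II 5750188-5754140), part of the web under the gut lumen, had 377, 385 and 348 CPM against 484, 501 and 496 CPM (log2 -0.41, adjusted p = 0.0122), with no overlap and little spread. The gut actin act-5 had 758, 857 and 828 CPM against 973, 1014 and 927 CPM and was not called (log2 -0.26, adjusted p = 0.0863). Over 20 intestinal genes 2 were lower and 1 higher (15% called, beside 1.38% of all genes tested), 16 lay below 0, and the median was -0.20. Without UV replicate 3 there were 5 lower and 1 higher. The sum over 6 intestinal markers was 2593, 2831 and 2952 CPM with UV and 3359, 3547 and 3173 CPM without. The largest share of it came from asp-1 (log2 -0.29, not called), and of the 6 only ifb-2 was called. Beside act-5, the rest were vha-6 at -0.11, ges-1 at -0.04 and elt-2 at 0.22, so the markers did not move as one. In body-wall muscle 1 of 39 genes was called (2.56%), the actin act-3 (log2 -0.46), whose reads cannot be cleanly told from those of other actins, and without UV replicate 3 there were 7 lower. Falls among the remaining genes named by size were bcf-1 (709, 697 and 966 against 1301, 1394 and 1187 CPM, log2 -0.72, adjusted p = 0.00907), the CD36-type scavenger receptor scav-4 (log2 -0.69, adjusted p = 0.0401) and fsn-1, an F-box protein of synapses (-0.69, adjusted p = 0.0345).

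Of 80 cytosolic ribosomal protein genes, 77 had a log2 change below 0 and the median was -0.10 under TMM and -0.09 under RLE size factors. Only 3 passed the test (3.75%, beside 1.38% of all genes tested), all lower, or 6 without UV replicate 3. The 3 were rpl-5 (1920, 1936 and 1798 against 2198, 2331 and 2175 CPM, log2 -0.24, adjusted p = 0.0395), rpl-18 (-0.25) and rpl-28 (-0.29), 29 of the 80 had an unadjusted p under 0.05, and DESeq2 called none. Of 11 genes of the mitochondrial genome 10 lay below 0 with a median of -0.25, and 2 were called lower, the cytochrome oxidase subunit COX2 (829, 804 and 694 against 1047, 1059 and 1050 CPM, log2 -0.44, adjusted p = 0.00964) and the complex I subunit ND5 (-0.47, adjusted p = 0.0166). UV replicate 3 was the lowest library for both, and without it the list had a median of -0.15 and 4 lower. The nuclear genes of the respiratory chain had no call in edgeR or DESeq2 among 67 tested, and none had an unadjusted p under 0.05, while without UV replicate 3 edgeR called 2 lower. The ADP/ATP carrier ant-1.1, one of the most abundant transcripts, had the smallest change of all called genes (log2 -0.19, adjusted p = 0.045).

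No gene in the lists of DNA repair was called, where 1.38% of all genes tested were. Among 22 nucleotide excision repair genes, all of them tested, edgeR and DESeq2 made 0 calls, 2 had an unadjusted p under 0.05, and the log2 changes ran from -0.40 to 0.47 with a median of -0.01. The damage sensor of the global route, xpc-1, had 89.1, 73.8 and 85.6 CPM with UV and 70.6, 64.1 and 70.3 CPM without, so that the groups did not overlap by a narrow gap (log2 0.27, SE 0.11, adjusted p = 0.363). The factor of the transcription-coupled route, csb-1, had 19, 16.21 and 34.3 CPM against 23.5, 21.8 and 17.7 CPM, with UV replicate 3 alone above the rest (log2 0.03, SE 0.25, adjusted p = 0.982). Shared by both routes, xpa-1 had 19.4, 20.3 and 11.7 CPM against 22.8, 17.7 and 19.9 CPM (log2 -0.17, SE 0.21, adjusted p = 0.837). With standard errors of this size, a small change of csb-1 or xpa-1 was not detectable at this depth. There were likewise 0 calls by either tool among 38 genes of translesion synthesis, recombination and mismatch repair (median 0.03, 2 at an unadjusted p under 0.05), 31 of the damage checkpoint and apoptosis (0.02, 2), 31 of DNA replication (-0.13, 2, with 24 below 0) and 34 of the cell cycle (0.01, 0). The apoptosis genes egl-1 and ced-13, which the p53 homologue CEP-1 induces in the germline after damage, were too low to test. Of these egl-1 had at most 1.8 CPM in any library, and ced-13 had no count in any, which allows up to 3 counts.

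**Figure D3:**
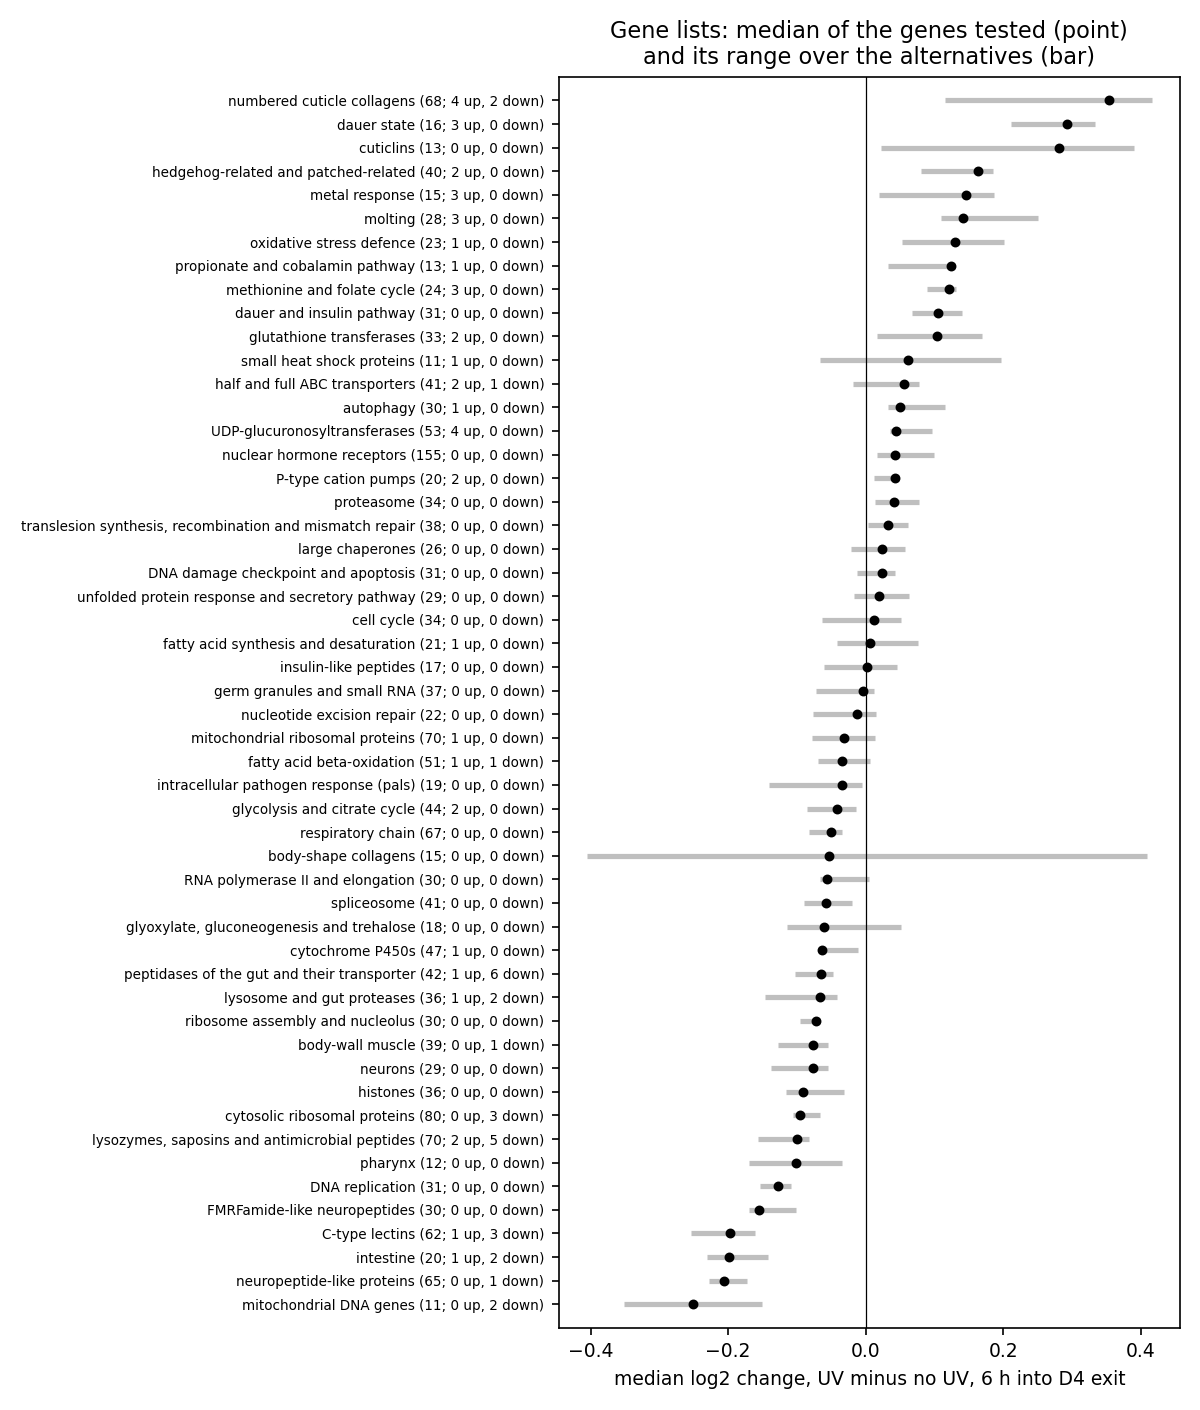
Median log2 change, UV minus no UV, of the genes tested in each list (point), with its range over the alternatives (grey bar), and in brackets the number of genes tested and of calls in each direction. Lists run from numbered cuticle collagens at 0.35 to genes of the mitochondrial genome at -0.25, nucleotide excision repair lies at -0.01, and all genes together lie at 0.00.

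Gene length differed little between the genes that rose and those that fell. From annotated start to end, the median length was 2516 bases for the 102 higher genes (quartiles 1404 and 4980), 2246 bases for the 48 lower genes (1164 and 4218) and 2792 bases for all genes tested. The ratio of the higher to the lower median was above 1 and lay on the other side of 1 when UV replicate 1 (0.761) or replicate 1 without UV (0.837) was left out. Split by length into 5 bins of about equal size, the genes tested had median log2 changes of -0.03, 0.00, 0.00, 0.02 and 0.01 from the shortest to the longest, and calls came from every bin, with 17 higher and 7 lower in the longest and 26 and 16 in the shortest. Within a library, the bin of longest genes stood above that of shortest genes by 1.19, 1.21 and 1.39 in median log2 CPM with UV and by 1.29, 1.19 and 1.28 without, so that the groups overlapped. Genes longer than the median were called in both directions, among them lrp-1 (19968 bases) with a rise and pept-1 (4896 bases) with a fall. At 0 h of D4 exit the medians were also close, at 2656 bases for the 2066 genes called higher (quartiles 1584 and 4554) and 2687 bases for the 1641 called lower (1418 and 5197). For D4 dauers the study reports longer genes among those lowered by UV than among those raised, by a Mann-Whitney U test on its own calls. Only medians and quartiles are given here, and a difference in length was not tested.

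More genes were called after the same UV before exit began, and fewer a day into it. At 0 h, 3707 of 11420 genes were called (32.5%), with 2066 higher (18.1%) and 1641 lower (14.4%), and at 24 h 16 of 11936 (0.134%), of which 15 were higher (0.126%) and 1 lower (0.00838%). An unadjusted p under 0.05 was nevertheless held by 1278 genes (10.7%) at 24 h, close to the 11.6% at 6 h. The 0 h UV libraries were the shallowest of D4, with 670316 to 856869 counts against 4070045 to 5978702 without UV, and the part of depth in that count was not tested. Of the 102 genes higher at 6 h, 101 were tested at 0 h, and 92 of them (91.1%) were higher there as well and 3 lower, beside 19.1% higher among all genes tested at both times. They made up 4.55% of the genes raised at 0 h, and their median log2 change there was 1.601. For the 48 lower genes the relation was looser, with 16 of 43 lower at 0 h, 8 higher and a median of -0.09. By 24 h the medians were 0.03 for the genes higher at 6 h and 0.03 for the genes lower, and 4 of 99 genes higher at 6 h were called at 24 h, all of them higher.

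The paths of single genes differed within this picture. For semo-1 the UV libraries had 617.3, 477.2 and 519.7 CPM at 0 h against 106.7, 111.1 and 117.8 CPM without, and at 24 h 304.4, 259.8 and 296.8 against 367.2, 288 and 286.5 CPM. The gap was thus wide at 0 and 6 h, and the groups overlapped at 24 h. In far-3 the log2 change was 4.02 at 0 h, 1.04 at 6 h and 0.16 at 24 h, and in mlt-11 it was 2.85, 1.15 and 0.34. In some genes that were lower at 6 h the groups were close at the other times. For cnc-6 the level without UV was 17.6, 14.4 and 16.3 CPM at 0 h, 98.7, 107 and 99.7 CPM at 6 h and 7.47, 7.7 and 6.57 CPM at 24 h, while with UV it was 21.75, 30.3 and 12.64 CPM at 0 h and 5.37, 8.42 and 9.65 CPM at 24 h. The groups overlapped at both ends, and the peak between them was lower after UV. In pept-1 the log2 change was -1.37, -0.50 and 0.14 at the 3 times, and in cpr-9 it was 0.57, -0.65 and 0.03.

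A gap between UV and no UV remained at all 3 times in a small set, although the mean levels with UV fell between 0 and 24 h. Called higher at 0, 6 and 24 h were daf-42, grl-25, col-43 and H39E23.3, a gene with no symbol in the annotation. The last was named, as were daf-42 and grl-25, for its pattern over the times. In daf-42 the UV libraries had 16.4, 14.6 and 7.98 CPM at 24 h against 0, 0.88 and 1.64 CPM without (log2 3.86, adjusted p = 0.00378), having stood 3.98 higher on the log2 scale at 0 h. In grl-25 the levels at 24 h were 28.2, 19.3 and 21 CPM against 5.81, 5.06 and 4.22 CPM (log2 2.18, adjusted p = 0.000435). The collagen col-43 (V 8049703-8050911) had 42, 39.9 and 35.3 CPM at 24 h against 1.94, 1.32 and 1.64 CPM (log2 4.58, adjusted p = 8.85e-08). On the log2 scale the gap of col-43 was smallest at 6 h, at 65.8, 81.9 and 129 against 48.59, 25.05 and 42.33 CPM, and the level without UV was then at its highest of the 3 times. No library overlapped between the groups in these genes at any of the 3 times.

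**Figure D4:**
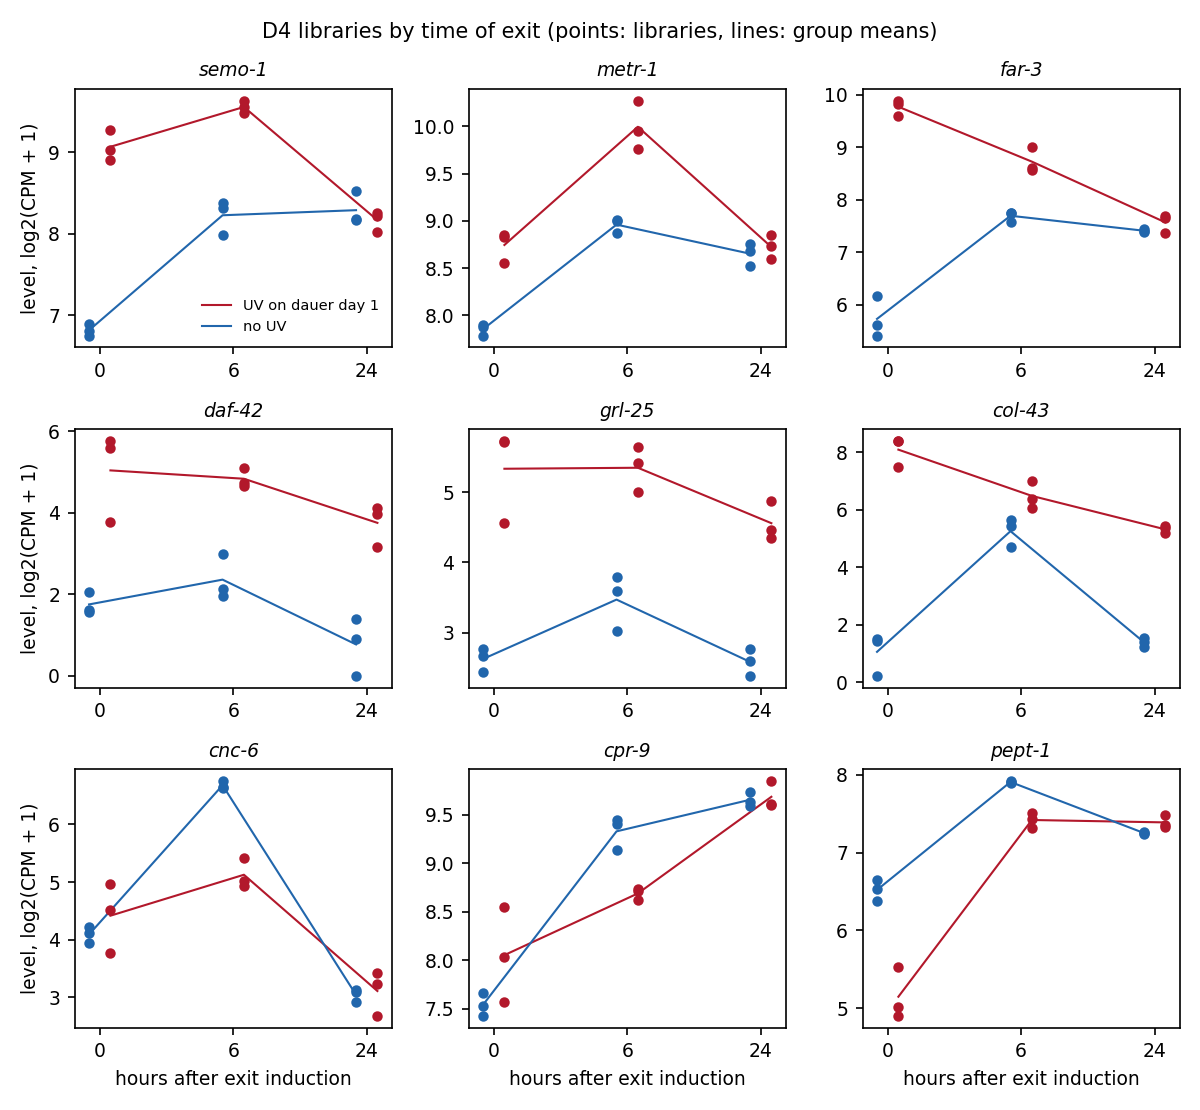
Levels, as log2(CPM + 1), of 9 genes in the D4 libraries at 0, 6 and 24 h after exit induction, with UV in red and without in blue, where points are libraries and lines join group means. The lines of semo-1, metr-1 and far-3 meet by 24 h, those of daf-42, grl-25 and col-43 stay apart at all 3 times, and cnc-6, cpr-9 and pept-1 lie lower with UV at 6 h.

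Tests of the difference between UV effects, which also use the 6 h libraries, gave 2137 of 11890 genes (18%) for 6 h against 0 h, 88 of 12231 (0.719%) for 6 h against 24 h and 808 of 13524 (5.97%) for D4 against D1 at 6 h of exit. Against 0 h, 1450 of these genes had a lower log2 change at 6 h and 687 (5.78%) a higher one. Against 24 h the counts were 29 (0.237%) and 59 (0.482%), and for D4 against D1 they were 425 (3.14%) and 383 (2.83%). Against 24 h, semo-1 was the clearest, with a log2 change of 1.32 at 6 h and -0.13 at 24 h, a difference of 1.45 (SE 0.15, adjusted p = 0.000215). On the other side stood clec-42, with a difference of -1.38 (adjusted p = 0.00486). At 6 h of exit from D1 dauers, irradiated on the day their exit began, UV changed 3744 of 13463 genes (27.8%), raising 14.4% and lowering 13.4%. Of the 102 genes higher at 6 h on D4, 45 were higher and 12 lower there, and of the 48 lower genes 18 were lower and 6 higher, beside 16.3% higher and 14.3% lower among all genes tested on both days. The effect on semo-1 was -0.22 on D1 and the difference between days 1.55 (SE 0.11, adjusted p = 5.2e-07), whereas numr-1 rose by 2.16 on D1 against 0.57 on D4. The factor csb-1 rose by 1.08 on D1, and on D4 its change was 0.03. The D1 and D4 larvae differed both in dauer day and in the time from UV to collection, which cannot be told apart here.

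The 6 h libraries with and without UV lay close together in their position between 0 h (set to 0) and 24 h (set to 1) of D4 exit without UV, measured over 12517 genes on an axis that used none of the 6 libraries. Without UV the positions were 0.431, 0.459 and 0.405 (0.431 ± 0.027), and with UV 0.422, 0.444 and 0.482 (0.449 ± 0.03). The groups overlapped, and their difference of 0.018 was smaller than the SD of either. At 0 h the UV libraries stood at 0.48, 0.389 and 0.394, and at 24 h they stood at 1.011, 1.016 and 1.019. A position is a projection on this axis and does not by itself show progress into exit. The 0 h UV libraries held 670316 to 856869 counts, against 4070045 to 5978702 at 0 h without UV. The part of depth in their positions was not tested. Between 0 and 24 h without UV, 7909 of the 12517 genes were called (63.2%), 33.1% higher and 30.1% lower at 24 h. Along this axis 67 of 99 genes higher after UV at 6 h rose between 0 and 24 h without UV, semo-1 and metr-1 among them, and so did 30 of the 48 lower genes, such as cpr-9, beside 32% of all genes.

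**Figure D5:**
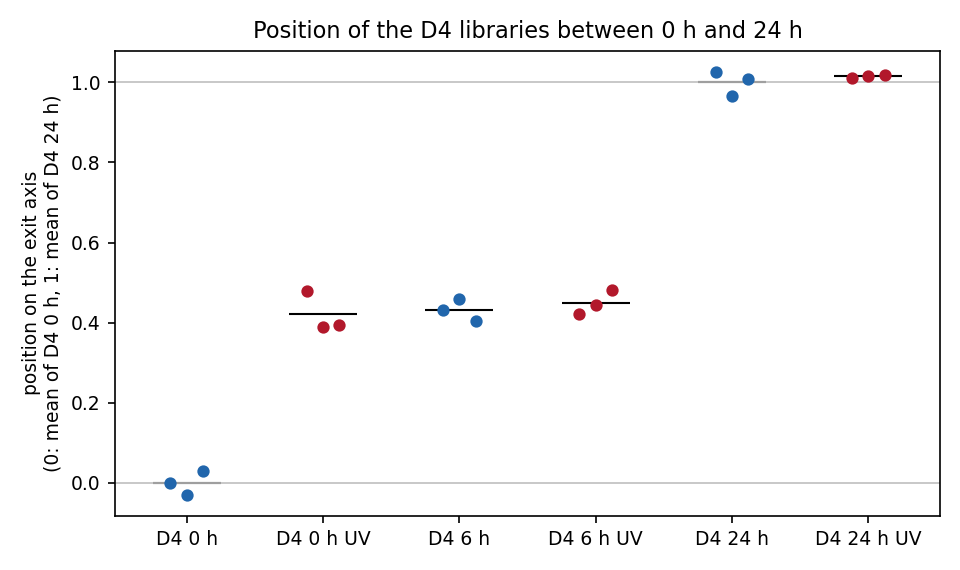
Position of each D4 library on the axis from the mean of D4 0 h (0) to the mean of D4 24 h (1), both without UV, over 12517 genes in log2 CPM, with UV in red, without in blue and group means as bars. The 6 h libraries lie between 0.405 and 0.482 in both groups, the 0 h UV libraries, the shallowest of D4, lie between 0.389 and 0.48, and the 24 h UV libraries lie at 1.011 to 1.019.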

How the data were processed

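Whole larvae of daf-2(e1370) were sequenced in 54 libraries, of which the 6 taken at 6 h of D4 exit, with and without UV on dauer day 1, were compared here. The authors deposited estimated counts per gene, not scaled for depth, made with fastp (trimming), Salmon (WBPS15 transcripts, genome decoy, GC correction) and tximport (sums over transcripts). These were rounded to whole numbers. The filter asked for 10 counts or more in 3 or more of the libraries compared. Counts were scaled by TMM and tested in edgeR 4.0.16 (glmQLFit and glmQLFTest, R 4.3.3, both directions), and p-values were adjusted by Benjamini and Hochberg's method with 0.05 as the threshold. Differences between UV effects were tested as interactions over 12 libraries. Positions in exit were projections of log2 CPM (prior count 2). DESeq2 1.42.0 was an alternative. Names and coordinates came from Ensembl WBcel235 release 115, in which 19897 of 19909 identifiers matched. Depth limits the precision most in UV replicate 3, and intervals cover counting error only where a floor of 3 counts is given.

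Named genes were 4 that the study names, up to 12 that rose most and 12 that fell most among called genes with a symbol and a mean count of 50 or more, and the leading members of each list and interaction. The genes, lists and tests were chosen with earlier results of these data known. The tests were tested on simulated data. The alternatives were RLE size factors, other filters, DESeq2, a replicate block, larger fits, thinned counts, a stricter threshold and each library left out in turn.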

Additional observations from a re-analysis of the deposited data

Results flagged for a closer look

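The UV effect differed between 6 h and 0 h of D4 exit in 2137 genes, by the interaction test of edgeR with Benjamini-Hochberg adjustment. The clearest with a higher log2 change at 6 h were the histone gene his-46 (difference 1.5, from -1.51 at 0 h to 0.00 at 6 h, adjusted p = 7.31e-07), whose reads may be shared with near-identical histone genes, the secreted protein gene scl-12 (4.25, from -3.40 to 0.83, adjusted p = 2.27e-05) and the Rab GTPase rab-11.2 (1.86, from -1.73 to 0.12, adjusted p = 2.53e-05). Those with a lower one were the stearoyl-CoA desaturase fat-6 (-2.08, from 1.94 to -0.13, adjusted p = 4.92e-08), the P-glycoprotein pgp-1 (-2.95, from 2.46 to -0.49, adjusted p = 4.92e-08) and the lipase-related lips-10 (-3.21, from 3.53 to 0.33, adjusted p = 7.51e-08).

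Between 6 h and 24 h the effect differed in 88 genes. It was higher at 6 h for semo-1 (1.45, adjusted p = 0.000215), rhr-1 (0.65, adjusted p = 0.00107) and ptr-22 (0.9, adjusted p = 0.00223), each of them close to 0 at 24 h (-0.13, -0.11 and -0.15). It was lower at 6 h for col-43 (-3.39, adjusted p = 0.00242), which stood at 1.19 and then 4.58, for clec-42 (-1.38, adjusted p = 0.00486) and for pept-1 (-0.64, adjusted p = 0.00637).

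Between D4 and D1 dauers at 6 h of exit the effect differed in 808 genes. It was higher on D4 for semo-1 (1.55, adjusted p = 5.2e-07), ptr-22 (1.48, from -0.72 on D1 to 0.75 on D4, adjusted p = 2.13e-06) and the adhesion protein dig-1 (0.69, from -0.54 to 0.14, adjusted p = 8.92e-06). It was lower on D4 for pgp-8 (-4.29, from 4.03 to -0.27, adjusted p = 4.58e-11), pgp-5 (-1.75, from 2.14 to 0.39, adjusted p = 2.57e-07) and numr-1 (-1.59, from 2.16 to 0.57, adjusted p = 2.66e-07). Both groups received UV on dauer day 1, so dauer day and the time from UV to collection cannot be told apart in these differences. The part of the unequal depth of these libraries in the differences was not tested.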

How the results depend on the processing

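The 150 calls (102 higher, 48 lower) became 353 (227 and 126) with no filter, 258 (169 and 89) in a fit of all 18 D4 libraries, 371 (242 and 129) in a fit of all 54, 98 (69 and 29) with counts thinned to the shallowest library, and 41 (29 and 12) at an adjusted p under 0.01. Leaving out 1 library gave 45 to 312 calls, 32 to 173 higher and 13 to 139 lower. RLE size factors gave 150, filterByExpr 157 and DESeq2 143, of which 122 were shared. With the replicate number as a block there were 138 calls (96 and 42), 114 of them shared. No pairing by number was seen, with correlations of same-numbered deviations of -0.032, 0.03 and 0.012, but 3 libraries to a group cannot decide it and the labels do not say. The block changed none of the total, higher and lower counts of this comparison by over 1.5 times. Calls within lists moved more, from 4 to 1 in UDP-glucuronosyltransferases and from 4 higher and 2 lower to 11 in numbered collagens. Among the 150 genes, 0 of 2088 alternative values changed direction, which the lack of overlap between the groups in each of them made nearly certain. Of 891 leave-one-out values 427 stayed past the threshold.

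For 6 h against 0 h, the genes with a higher effect at 6 h went from 687 to 1057 with no filter. For 6 h against 24 h, 88 genes (59 and 29) became 178 (107 and 71) with no filter, 150 (97 and 53) with DESeq2, and 39 to 160 (28 to 86 and 11 to 74) with 1 library left out, the extremes being without UV replicates 2 and 3. For D4 against D1, those higher on D4 ran from 207 to 447 with 1 library left out, the lowest being without UV replicate 2. The ratio of the median gene length of higher to lower genes was above 1 and became 0.94 among genes changed by at least 1 on the log2 scale, 0.98 in the upper 50% of levels, and 0.761 to 1.33 with 1 library left out. Only those causes that lie in the construction of an alternative are known, and the others were not tested.

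Depth limits calls among low genes, since UV replicate 3 held 1141348 counts. No label gives a sequencing run or extraction date, so a batch could not be looked at.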

Other observations

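Other called genes act in nitrogen and carbon metabolism. Glutamine synthetase gln-1 had 71.1, 78.8 and 84.7 CPM with UV against 48.22, 41.5 and 40.9 CPM without (log2 0.83, SE 0.12, adjusted p = 0.0071), and asparagine synthetase asns-2 had 752, 726 and 737 against 495, 572 and 555 CPM (log2 0.45, adjusted p = 0.00734). The branched-chain aminotransferase bcat-1 had 272, 279 and 307 against 204, 214 and 208 CPM (log2 0.45, adjusted p = 0.0156). In all 3 the UV libraries lay above the others without overlap, as the groups did not overlap in any called gene nor in 17.9% of all genes tested. Of 44 genes of glycolysis and the citrate cycle 2 were higher (4.55%, beside 1.38% of all genes tested), while the list median was -0.04. They were lactate dehydrogenase ldh-1 (log2 0.65, adjusted p = 0.0166) and phosphofructokinase pfk-1.1 (0.43, adjusted p = 0.0316). The glycerol-3-phosphate dehydrogenase gpdh-1 (0.60, adjusted p = 0.0411), the fatty acid desaturase fat-2 (0.34, adjusted p = 0.0129) and the pantothenate kinase pnk-1 (0.50, adjusted p = 0.039) rose as well. These genes were named after their values were seen, except the list members that the naming rule gave.

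Neuropeptide-like protein genes lay below 0 in 53 of 65 tested, with a median log2 change of -0.21 (-0.19 without UV replicate 3), and 1, nlp-27, was called lower. Of 155 nuclear hormone receptors edgeR and DESeq2 called 0, with 12 at an unadjusted p under 0.05. By chromosome, calls made up 2.1% of genes tested on chromosome V and 1.99% on X, beside 0.788% on I and 1.38% over all genes, and 2 of the 11 genes of the mitochondrial genome (18.2%) were called.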
